A study of Mus musculus with 6 samples.

Results

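The IL-1 receptor family was followed in RNA sequencing of YFP+ regulatory T (Treg) cells sorted from adult female mice. The members are the 8 genes *Il18rap*, *Il18r1*, *Il1rl1*, *Il1rap*, *Il1r1*, *Il1r2*, *Il1rl2* and *Sigirr*, taken by gene symbol from the 24420 genes of the deposited table. The family was chosen by the counts of *Il18rap* and *Il1rl1* in these same samples, both lower without OGT, so differences between the genotypes are a description here. OGT is the enzyme that attaches O-GlcNAc to proteins. There were 3 OGT-sufficient samples of genotype Foxp3YFP-Cre/wtOgtwt/fl and 3 OGT-deficient samples of genotype Foxp3YFP-Cre/wtOgtfl/fl, all on C57BL/6 and labelled as lymph node. Every mouse of either group carried Cre expressed from the *Foxp3* locus and at least 1 floxed *Ogt* allele. In these females only part of the Treg cells express the YFP-Cre fusion, so the hosts kept YFP- Treg cells with OGT. The labels do not state that each library came from a separate mouse, and p-values measure only the spread between these samples.

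IL-1 family cytokines act through pairs of receptor chains. A ligand-binding chain first holds the cytokine, an accessory chain then joins, and the intracellular TIR domains of the pair recruit MYD88 and IRAK kinases toward NF-kB. IL-18 uses *Il18r1* with *Il18rap*, IL-33 uses *Il1rl1* (ST2) with *Il1rap*, IL-1 uses *Il1r1* with *Il1rap*, and IL-36 uses *Il1rl2* with *Il1rap*. *Il1r2* is a decoy without a TIR domain and *Sigirr* dampens signalling. ST2 is known as a marker of effector Treg cells in tissues, and Treg cells of the gut are known to carry the IL-18 receptor.

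Total counts were between 3375454 and 4103552 per library, and levels are given as counts per 1000000 (CPM) of the TMM-scaled library size, on which 3 counts correspond to 0.756 to 0.805 CPM. These totals include the ribosomal RNA entry *Rn45s*, which held 24.2% of the counts in OGT-sufficient replicate 3 and 30.6% to 37.1% elsewhere. Without it, 2488303 to 2686873 counts were left per library. The targeted gene *Ogt* was at 562, 632 and 957 counts in the OGT-sufficient libraries, in the order of replicates 1 to 3 used throughout, against 327, 266 and 368 without OGT. The Treg genes *Foxp3* (719 to 1116 counts) and *Il2ra* (1247 to 2523 counts) were abundant in every library, but Treg markers were not all even between the groups. *Il2ra* (1830, 2264 and 1247 counts against 2523, 2480 and 2485), *Il2rb* and *Tnfrsf18* were higher in OGT-deficient samples without overlap. These are 3 of 8 Treg markers, where 5.72% of all genes tested were. The summed Treg list was lowest in OGT-sufficient replicate 3, at 2220 CPM against 2965 to 3492 elsewhere. OGT-sufficient replicate 3 stood apart: it had a count in 18346 genes against 14412 to 15197 elsewhere, including 310 of 1125 olfactory receptor genes against 13 to 56, and its neutrophil marker list summed to 282 CPM against 13.6 to 34.9. The 10 macrophage markers summed to between 1285 CPM in OGT-deficient replicate 1 and 5400 CPM in OGT-deficient replicate 3. For several results below that rest on a single library, the value without that library is given as well.

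Both chains of the IL-18 receptor were lower in OGT-deficient Treg cells, and its accessory chain *Il18rap* was the member that differed most. *Il18rap* had 57, 57 and 55 counts in the OGT-sufficient libraries and 18, 15 and 19 in the OGT-deficient ones. At counts this low, the spread of 3 libraries can fall below the counting error. The OGT-sufficient libraries were nearly level, at 14.4 to 15.3 CPM, and all lay above the OGT-deficient libraries at 3.78 to 4.96 CPM. Its mean of 15.0 ± 0.472 CPM was 3.36-fold that of 4.45 ± 0.608 CPM (SD, n = 3 each), which on the log2 scale is -1.74 with a standard error of 0.22. In edgeR's quasi-likelihood fit of 10949 genes it had an adjusted p of 0.0837 and rank 3 by p. That adjusted p lay between 2.3e-07 and 0.715 in the other settings tried. It stayed under 0.1 (0.0931) without OGT-sufficient replicate 3. It was 0.490 and 0.469 without OGT-sufficient replicates 1 and 2, and 0.203, 0.715 and 0.254 without OGT-deficient replicates 1, 2 and 3. In bulk RNA, fewer cells that express a receptor and less RNA per cell cannot be told apart.

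*Il18r1*, the IL-18-binding chain, had 271, 191 and 227 counts in the OGT-sufficient libraries and 139, 120 and 143 in the OGT-deficient ones. Again the groups did not overlap, with the lowest OGT-sufficient library at 51.2 CPM and the highest OGT-deficient one at 37.3 CPM. The mean was 61.0 ± 10.5 CPM against 34.4 ± 3.71 CPM (SD, n = 3 each), or -0.82 on the log2 scale with a standard error of 0.16. Its adjusted p of 0.215 by edgeR's quasi-likelihood test did not pass 0.1, and lay between 0.0099 and 0.935 in the other settings tried. The 2 chains did not differ in step. There were 21.0, 29.8 and 24.2 *Il18rap* counts per 100 *Il18r1* counts in the OGT-sufficient libraries and 12.9, 12.5 and 13.3 in the OGT-deficient ones. This ratio was 25.0 ± 4.46 against 12.9 ± 0.395 (SD, n = 3 each) and did not overlap between the groups. The OGT-deficient ratios rest on 15 to 19 *Il18rap* counts per library, so their small SD is no measure of precision. In these samples the accessory chain was the lower of the pair by the larger factor. Its counts helped to choose the family, so nothing further is read from the ratio.

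Markers of other cells known for the IL-18 receptor were read in the same libraries. Of the 7 NK-cell markers, *Klra8* had 0 counts in every library, *Ncr1* had 0 to 2, *Klre1* 0 to 5, *Klrb1c* 0 to 14, *Prf1* 6 to 17, *Eomes* 6 to 24 and *Tyrobp* 109 to 258. Their sum was 44.6 to 61.7 CPM in OGT-sufficient and 49.3 to 70.8 CPM in OGT-deficient samples. Most of it was *Tyrobp*, at 55.6, 44.0 and 28.6 CPM against 40.3, 65.0 and 59.0 CPM, so the sum says little of the others. *Eomes* had 12, 10 and 24 counts against 12, 11 and 6, and *Klrb1c* had 5, 4 and 14 against 6, 0 and 2. *Prf1* had 6, 15 and 17 against 16, 10 and 11. The groups overlapped in every NK-cell marker. Of the CD8 markers, *Cd8a* had 15, 20 and 30 counts against 17, 11 and 10 (log2 fold change -0.82, standard error 0.37). *Cd8b1* had 53, 49 and 56 against 86, 64 and 36 (0.18, standard error 0.29), and the groups overlapped in both. Together these markers summed to 18.1 to 22.5 CPM in OGT-sufficient and 12.0 to 26.5 CPM in OGT-deficient samples. The part of such cells in the *Il18rap* and *Il18r1* levels was not tested.

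**Figure D1:**
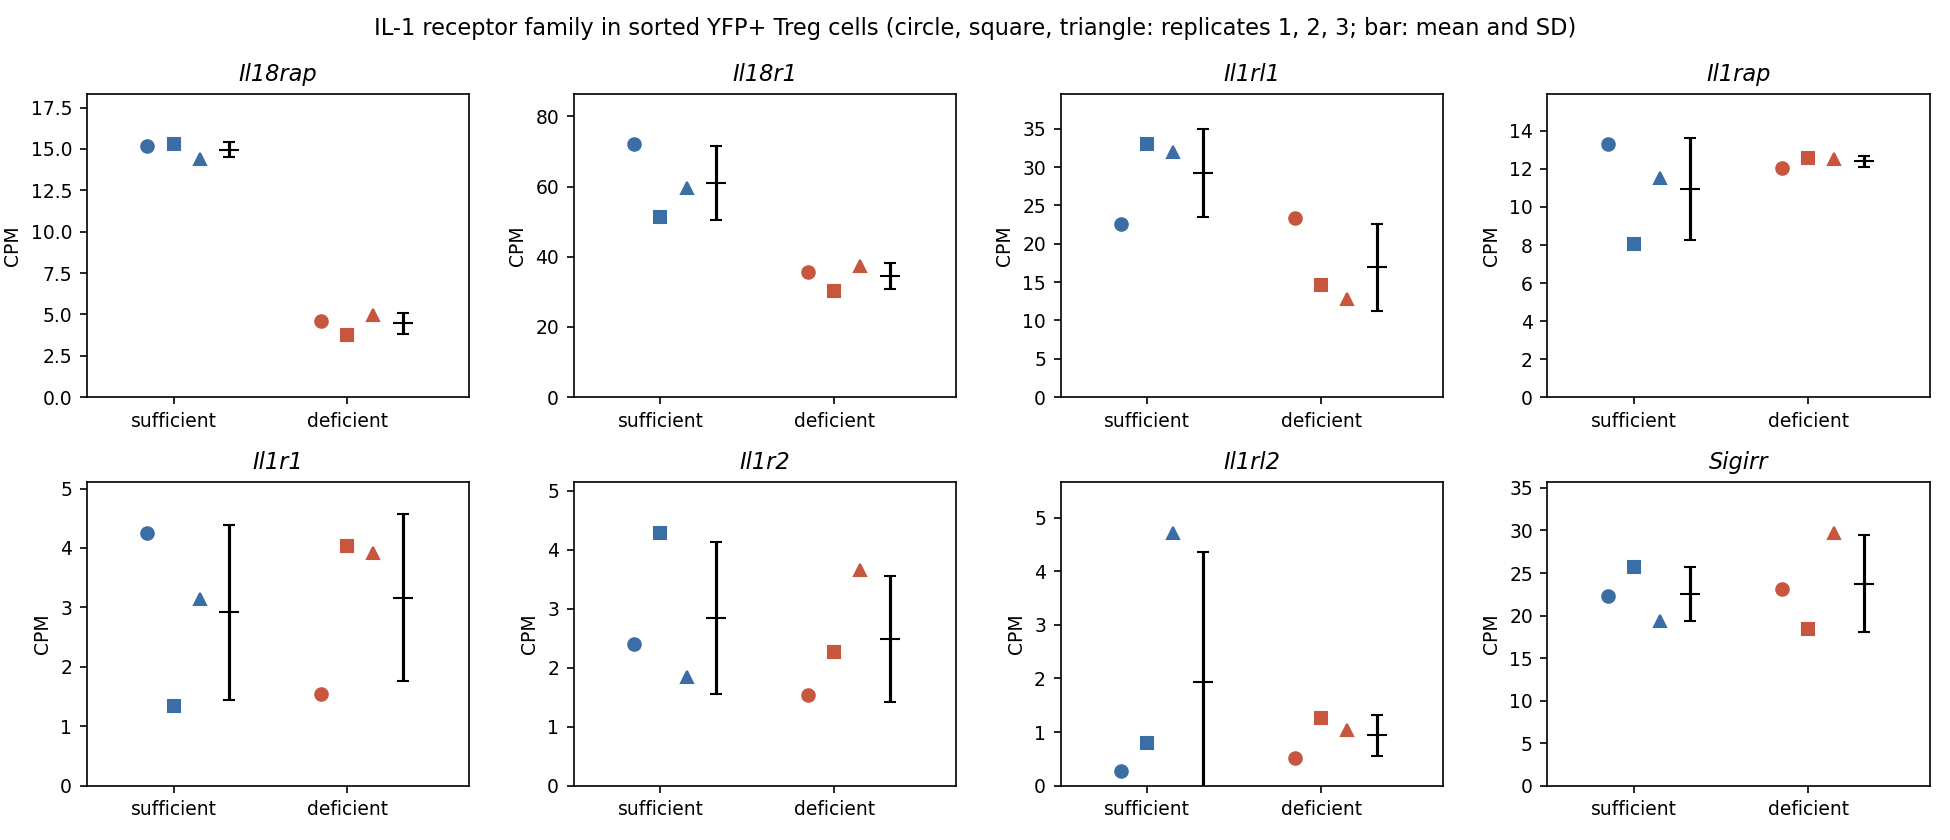
CPM (counts per 1000000) of the 8 receptor genes in each library, on linear axes that start at 0; points are the 3 replicates of each group and the bar is the mean with SD. *Il18rap* and *Il18r1* separate the groups, *Il1rl1* overlaps in replicate 1 of each group, and the other 5 genes overlap broadly.

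*Il1rl1*, which encodes ST2, the chain that binds IL-33, had 85, 123 and 122 counts in the OGT-sufficient libraries and 91, 58 and 49 in the OGT-deficient ones. OGT-deficient replicate 1, at 23.4 CPM, lay above OGT-sufficient replicate 1, at 22.6 CPM, so the groups overlapped in that pair of libraries. The mean was 29.2 ± 5.72 CPM against 16.9 ± 5.66 CPM (SD, n = 3 each), or -0.79 on the log2 scale with a standard error of 0.25. With an adjusted p of 0.565 in edgeR's quasi-likelihood fit it did not pass, and no alternative setting brought it under 0.1. Its unadjusted p of 0.0130 in the same fit became 0.0589 and 0.0600 without OGT-deficient replicate 2 or 3. The log2 fold change was -1.09 without OGT-deficient replicate 1. The annotation holds *Il1rl1* transcripts that code for 567 residues and others that code for 337, the long membrane form and the short soluble decoy, and the deposited counts per gene do not separate them. Mast cells are rich in ST2. Of the 8 mast cell and basophil markers, *Fcer1a* had 0 counts in every library, *Kit* had 15 to 47, *Hdc* 0 to 21, and each of the other 5 at most 9. They summed to 5.90 to 21.5 CPM in OGT-sufficient and 9.40 to 13.4 CPM in OGT-deficient samples. For ILC2, which carry ST2 as well, *Il5* had 0 counts in every library and *Il13* at most 1. The summed list of 5 ILC2 markers nevertheless lay at 15.8 to 22.0 CPM in OGT-sufficient and 8.99 to 12.0 CPM in OGT-deficient samples. It came in large part from *Il9r* and from *Il17rb*. *Il9r* had 39, 38 and 52 counts against 26, 16 and 25 (log2 fold change -0.99, standard error 0.27). It was lower without overlap, as were 7.48% of all genes tested. *Il17rb* had 22, 20 and 30 counts against 9, 18 and 21 (log2 fold change -0.63, standard error 0.36), and its groups overlapped. The part of mast cells or ILC2 in the *Il1rl1* level was not tested.

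The accessory chain shared by the IL-1, IL-33 and IL-36 receptors was not lower in OGT-deficient cells. *Il1rap* had 50, 30 and 44 counts in the OGT-sufficient libraries and 47, 50 and 48 in the OGT-deficient ones. The OGT-deficient libraries lay within the range of the others, at 12.4 ± 0.284 CPM against 11.0 ± 2.68 CPM (SD, n = 3 each), or 0.18 on the log2 scale with a standard error of 0.23 and an adjusted p of 0.900 in the edgeR fit. The annotation places an antisense gene over 552 exon bases of *Il1rap*. There were 58.8, 24.4 and 36.1 *Il1rap* counts per 100 *Il1rl1* counts in the OGT-sufficient libraries and 51.6, 86.2 and 98.0 in the OGT-deficient ones, and the groups overlapped. *Sigirr*, the inhibitory member, had 84, 96 and 74 counts against 90, 73 and 114. Its mean was 22.5 ± 3.18 CPM against 23.8 ± 5.71 CPM (SD, n = 3 each), or 0.08 on the log2 scale with a standard error of 0.21 and an adjusted p of 0.947 in the edgeR fit, and the sign turned when OGT-sufficient replicate 3 (-0.01) or OGT-deficient replicate 3 (-0.08) was left out.

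**Figure D2:**
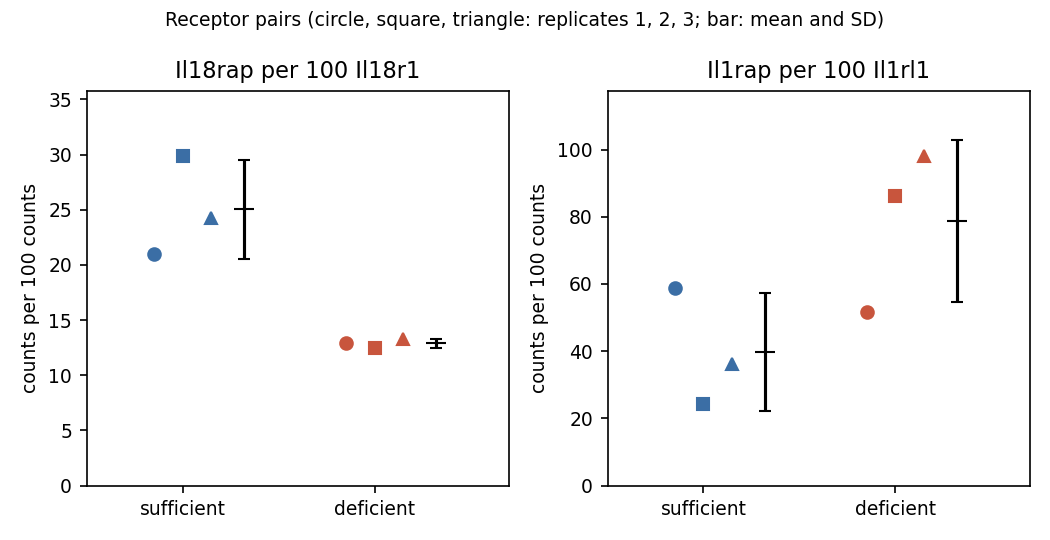
Counts of the accessory chain per 100 counts of the ligand-binding chain in each library, for the IL-18 receptor (left) and the IL-33 receptor (right); points are replicates and the bar is the mean with SD. The IL-18 receptor pair lies at 21.0 to 29.8 in OGT-sufficient and 12.5 to 13.3 in OGT-deficient samples, while the IL-33 receptor pair overlaps.

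The remaining receptors were near the limit of detection. *Il1r1*, the signalling receptor for IL-1, had 16, 5 and 12 counts in the OGT-sufficient libraries and 6, 16 and 15 in the OGT-deficient ones. Its log2 fold change of 0.12 had a standard error of 0.51, and it turned to -0.22 without OGT-sufficient replicate 2, -0.07 without OGT-deficient replicate 2 and -0.03 without OGT-deficient replicate 3. A difference of the size seen in *Il18r1* could not be resolved at this depth. The decoy *Il1r2* had 9, 16 and 7 counts against 6, 9 and 14, and the IL-36 receptor *Il1rl2* had 1, 3 and 18 against 2, 5 and 4. Neither passed the low-count filter. The 18 counts of *Il1rl2* came from OGT-sufficient replicate 3, the library with counts in many otherwise silent genes.

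In all, 6 of the 8 members passed the low-count filter, none of them only through the group in which it was high. Of these, 1 passed an FDR of 0.1, where 0.0274% of all genes tested did. At an unadjusted p under 0.05, 3 were lower in OGT-deficient cells, where 4.01% of all genes tested were, and 0 were higher, against 3.09%. The groups did not overlap in 2 members, both lower, against 7.48% of all genes tested. The median log2 fold change of the 6 was -0.35, and that of all genes tested was -0.02. Since this contrast chose the family, nothing is read from these counts.

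Per length of exon, *Il18r1* and *Sigirr* were the most abundant members. Over all 6 libraries *Il18r1* was at 9.90 ± 3.35 CPM per kb and *Sigirr* at 7.60 ± 1.38 CPM per kb (SD, n = 6), a difference within their spread. *Il1rl1* followed at 3.35 ± 1.22, and *Il18rap* at 1.44 ± 0.855, *Il1r2* at 1.40 ± 0.565 and *Il1rap* at 1.03 ± 0.165 CPM per kb overlapped in their spread over both groups. *Il1r1* was at 0.478 ± 0.203 and *Il1rl2* at 0.211 ± 0.242 CPM per kb. In OGT-sufficient cells *Il18r1* led at 12.7 ± 2.18 CPM per kb over *Sigirr* at 7.40 ± 1.05 (SD, n = 3 each), and *Il18rap* at 2.22 ± 0.070 lay above *Il1rap* at 0.965 ± 0.235. In OGT-deficient cells *Il18r1* at 7.15 ± 0.771 and *Sigirr* at 7.81 ± 1.88 CPM per kb (SD, n = 3 each) were within their spread, and *Il18rap* stood at 0.660 ± 0.090, below *Il1rap* at 1.09 ± 0.025. With the longest transcript as length instead of all exons, means over 6 libraries were 11.6 CPM per kb for *Sigirr* and 11.5 for *Il18r1*. Within each group the order of this pair was as with all exons. By that length *Il18rap* and *Il1rap* lay closer in OGT-sufficient cells, at 3.06 ± 0.097 and 2.43 ± 0.592 (SD, n = 3 each). Over 6 libraries *Il1rap*, at 2.58 CPM per kb, then lay above *Il18rap*, at 1.99.

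**Figure D3:**
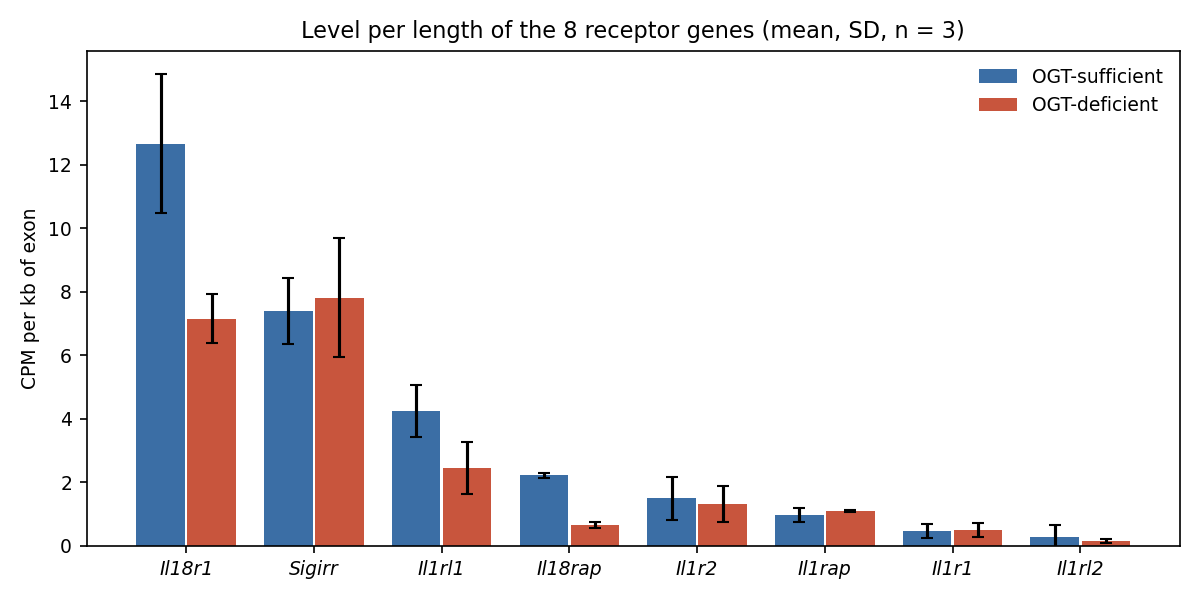
CPM per kb of exon for each receptor gene as mean with SD over 3 libraries per group, on an axis that starts at 0. *Il18r1* lies at 12.7 in OGT-sufficient and 7.15 in OGT-deficient samples, where it is close to *Sigirr*, and *Il18rap* lies above *Il1rap* in the first and below it in the second.

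Of the 8 genes, 6 lie next to each other on the plus strand of chromosome 1 in GRCm38, in the order *Il1r2*, *Il1r1*, *Il1rl2*, *Il1rl1*, *Il18r1*, *Il18rap*, from 40074079 to 40551705. *Il1rap* lies on chromosome 16 (26581704 to 26730117) and *Sigirr* on chromosome 7 (141091175 to 141100572). The 3 members lower in OGT-deficient cells at an unadjusted p under 0.05, of which *Il18rap* alone passed the FDR, are the last 3 of the run, *Il1rl1* (40429570 to 40465415), *Il18r1* (40465552 to 40500854) and *Il18rap* (40515362 to 40551705), a stretch of 122 kb. Only 136 bases separate *Il1rl1* from *Il18r1*, and 14507 bases separate *Il18r1* from *Il18rap*. No annotated gene overlaps these 3 genes. The groups overlapped in the neighbours that could be tested. Within 500 kb of the run, 11 other genes were listed and only *Map4k4* and *Rnf149*, both upstream of the run, had enough counts to be tested. *Map4k4*, a kinase gene, had 1040, 1099 and 1461 counts in the OGT-sufficient libraries and 1341, 1125 and 1287 in the OGT-deficient ones (log2 fold change 0.01, standard error 0.15). *Rnf149*, which encodes a ubiquitin ligase, had 228, 207 and 217 against 179, 277 and 267 (log2 fold change 0.10, standard error 0.17). On the *Il18rap* side, *Slc9a4*, *Slc9a2*, *Mfsd9* and *Tmem182* had at most 3, 5, 11 and 1 counts, so no gene with enough counts for the test bounds the stretch there within that distance.

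**Figure D4:**
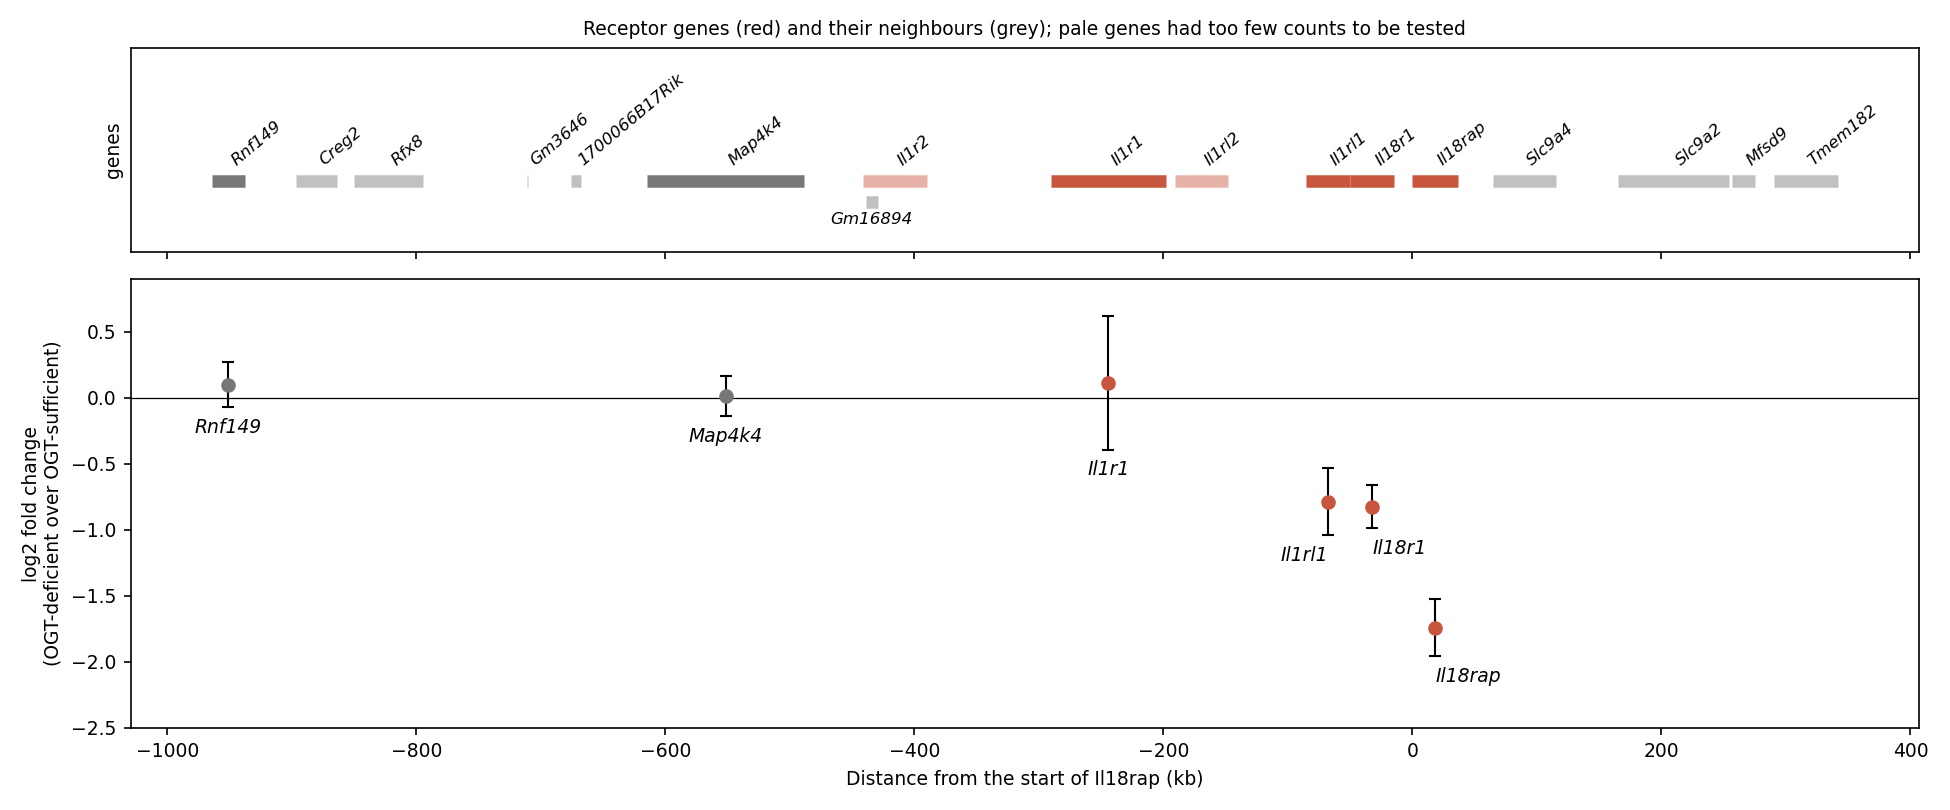
Upper panel, the run of receptor genes and the genes within 500 kb of it, by distance in kb from the start of *Il18rap*; lower panel, the log2 fold change with standard error of the 6 genes tested. *Il1rl1* (-0.79), *Il18r1* (-0.82) and *Il18rap* (-1.74) lie side by side below 0, while the points of *Il1r1*, *Map4k4* and *Rnf149* lie within 0.12 of 0. That of *Il1r1* has a standard error of 0.51, too wide to place the gene at 0.

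The starts of these 3 neighbouring genes are shown because their RNA differed in the same direction. Promoter sequences from RefSeq were used for 7 of the 8 members, in 11 windows, and that of *Sigirr* was not analysed here. The 250 bases before each start were searched on either strand for the STAT motif TTCNNNGAA, the AP-1 or BATF motif TGANTCA, the GATA motif AGATAA and the forkhead motif GTAAACA, where N is any base. Capitals mark matches in the sequences (GRCm38.p6, plus strand).
Il18rap, chr1:40515112-40515361: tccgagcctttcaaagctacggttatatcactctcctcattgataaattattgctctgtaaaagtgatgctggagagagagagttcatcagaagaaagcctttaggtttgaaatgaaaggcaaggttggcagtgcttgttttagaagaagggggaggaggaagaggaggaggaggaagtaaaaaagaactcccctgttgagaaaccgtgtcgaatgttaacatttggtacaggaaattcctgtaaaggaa
Il18r1, most downstream of 3 starts, chr1:40465756-40466005: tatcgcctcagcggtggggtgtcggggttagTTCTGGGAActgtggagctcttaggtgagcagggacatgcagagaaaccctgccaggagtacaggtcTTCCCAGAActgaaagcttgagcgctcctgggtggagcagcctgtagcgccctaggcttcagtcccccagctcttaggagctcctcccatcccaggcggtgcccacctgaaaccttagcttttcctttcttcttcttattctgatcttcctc
Il1rl1, upstream start, chr1:40429320-40429569: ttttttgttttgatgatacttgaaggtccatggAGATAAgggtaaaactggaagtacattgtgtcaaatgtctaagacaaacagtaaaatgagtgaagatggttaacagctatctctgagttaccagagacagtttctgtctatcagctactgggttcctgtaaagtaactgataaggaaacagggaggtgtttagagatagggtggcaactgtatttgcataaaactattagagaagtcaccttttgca
Il1rl1, downstream start, chr1:40439379-40439628: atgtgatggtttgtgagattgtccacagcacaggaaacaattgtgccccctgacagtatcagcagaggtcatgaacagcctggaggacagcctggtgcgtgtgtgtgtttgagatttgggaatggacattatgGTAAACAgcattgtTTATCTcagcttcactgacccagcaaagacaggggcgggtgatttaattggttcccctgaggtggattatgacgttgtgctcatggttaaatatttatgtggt
The *Il18r1* window shown held 2 STAT motifs, TTCTGGGAA and TTCCCAGAA, starting 219 and 152 bases before the start. At least 1 STAT motif was found in 7.02% of the 32851 promoter windows of RefSeq, and 2 or more in 0.317%. The other *Il18r1* windows and the *Il18rap* window held none of the 4 motifs. Each *Il1rl1* window held 1 GATA motif, present in 9.99% of all windows, and the downstream one held a forkhead motif, present in 3.17%. Among the other members, *Il1r2* held 1 STAT motif, and the windows of *Il1r1*, *Il1rl2* and *Il1rap* held no match. No member window held the AP-1 motif, found in 6.75% of all windows. These are matches of letters, and binding was not measured.

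Outside the receptors, only 4 of the 11 ligand and regulator genes had enough counts to be tested, and no signalling gene passed an FDR of 0.1. *Il33*, the ligand of ST2, had at most 1 count in a library, and the IL-36 genes had 0 counts apart from 2 of *Il1f6* in OGT-sufficient replicate 3. *Il18* had 143, 112 and 82 counts in the OGT-sufficient libraries and 53, 161 and 162 in the OGT-deficient ones (log2 fold change 0.11, standard error 0.38). *Il18bp*, the soluble inhibitor of IL-18, had 121, 128 and 80 against 88, 166 and 159 (0.28, standard error 0.27, and 0.09 without OGT-sufficient replicate 3). Both were lowest in OGT-sufficient replicate 3 and OGT-deficient replicate 1, the libraries in which the macrophage list was lowest as well, at 1751 and 1285 CPM against 3200 to 5400 elsewhere. The part of macrophage RNA in these levels was not tested. *Il1a* had 53, 12 and 18 counts against 9, 18 and 27 (-0.66, standard error 0.58). *Il1b* had 46, 12 and 8 counts against 12, 14 and 8, and its log2 fold change of -1.002 became 0.17 without OGT-sufficient replicate 1. *Il1rn*, the IL-1 receptor antagonist, had 2 to 11 counts. Of the 11 ligand and regulator genes, 4 were tested in the edgeR fit, with 0 past an FDR of 0.1 and 0 at an unadjusted p under 0.05.

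The genes that carry the signal from these receptors were all expressed, and all 24 of the list were tested. *Myd88*, the adaptor that binds the TIR domains, was at 40.7 ± 1.97 CPM in OGT-sufficient and 43.7 ± 6.70 CPM in OGT-deficient cells (SD, n = 3 each; log2 fold change 0.10, standard error 0.15). Log2 fold changes of the list ran from -0.21 to 0.59 with a median of 0.05. None passed an FDR of 0.1 with edgeR's quasi-likelihood test. At an unadjusted p under 0.05 there was 1 higher gene and 0 lower ones, which is 1 of 24 against 7.10% of all genes tested in either direction. That gene was *Nfkbiz*, which encodes a nuclear IkB protein induced by IL-1 and IL-18 signals, with 560, 538 and 570 counts against 681, 666 and 710. It differed by 0.25 on the log2 scale (standard error 0.10) with an adjusted p of 0.669 in the edgeR fit, and its unadjusted p stayed under 0.05 in 8 of the 14 other settings, and not when OGT-sufficient replicate 2, OGT-deficient replicate 1 or OGT-deficient replicate 3 was left out. The groups did not overlap in *Nfkbiz* or in *Peli1*, a ubiquitin ligase of the IRAK complex (log2 fold change 0.23, standard error 0.11). Nor did they in *Irak4*, the kinase that docks on MYD88 (-0.11, standard error 0.12). The *Irak4* value came to -0.0015 without OGT-sufficient replicate 1. Non-overlap was seen in 13.2% of all genes tested.

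**Figure D5:**
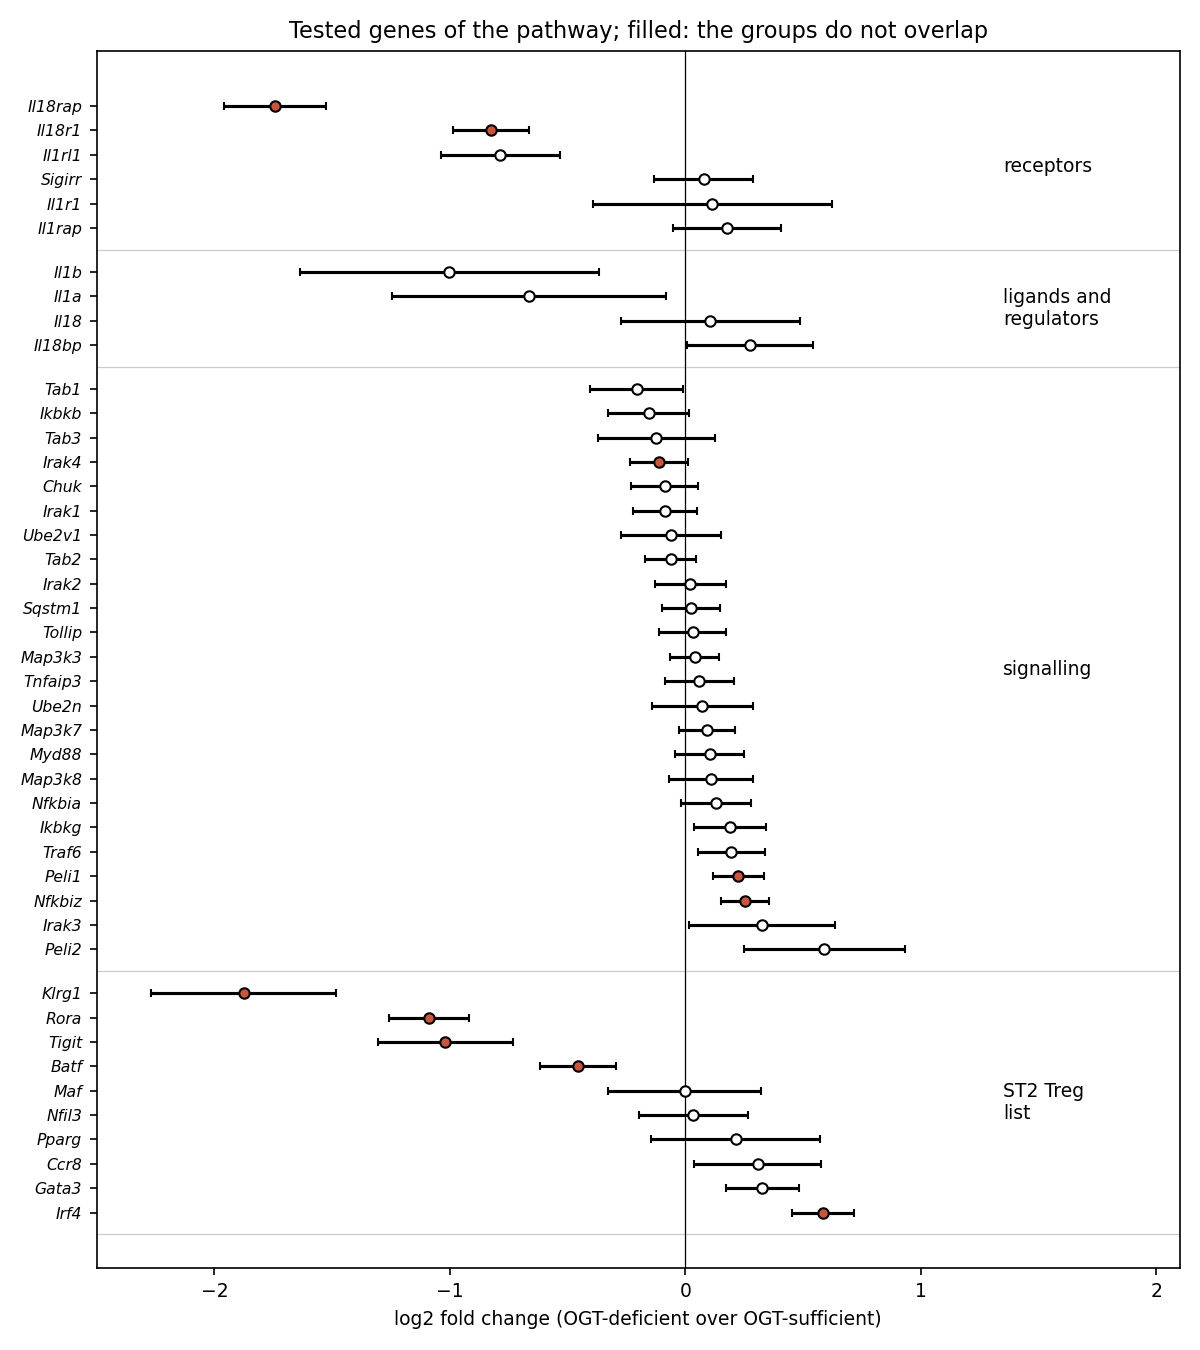
Log2 fold change (OGT-deficient over OGT-sufficient) with standard error for every tested receptor, ligand or regulator, signalling gene and gene of the ST2 Treg list; filled points mark genes whose groups do not overlap. The 24 signalling genes lie between -0.21 and 0.59, and *Il18rap*, *Il18r1* and *Il1rl1* lie between -1.74 and -0.79.

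Genes known from ST2-bearing Treg cells lay on both sides of 0. Of the 12 genes on that list, 10 were tested and 0 passed an FDR of 0.1 with edgeR's quasi-likelihood test, while 4 were lower and 1 higher at an unadjusted p under 0.05, against 4.01% and 3.09% of all genes tested. The study names *Klrg1* from these samples and the list was drawn up with earlier results known, so its direction is no independent evidence. *Rora*, a nuclear receptor of tissue Treg cells, had 208, 252 and 189 counts against 121, 106 and 89 (log2 fold change -1.09, standard error 0.17). *Klrg1*, a receptor of terminally differentiated effector cells, had 32, 44 and 24 counts against 13, 10 and 5 (-1.88, standard error 0.39). *Irf4*, a transcription factor of effector Treg cells, went the other way, with 361, 393 and 329 counts against 541, 516 and 623 (0.58, standard error 0.13). Adjusted p-values of these 3 genes in the edgeR fit were 0.189, 0.268 and 0.306. The other lower genes were *Tigit*, an inhibitory receptor (-1.02, standard error 0.28), and *Batf*, an AP-1 factor of effector Treg cells (-0.45, standard error 0.16), both named after their values were seen. *Gata3*, the factor known to drive *Il1rl1*, had 354 to 507 counts in OGT-sufficient and 504 to 615 in OGT-deficient libraries, and was not among the 5. The growth factor *Areg* had at most 8 counts and *Il10* at most 4.

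The genes whose level ran most like *Il18rap* over the 6 libraries, by Pearson's r of log2(CPM + 1), were *Gtf2i* (0.997), *Slc38a1* (0.994), *Ttn* (0.989), *Klf10* (0.989) and *Tbc1d17* (0.987). *Il18rap* was nearly level within each group, so ranking by r itself picked genes that differed between the groups in the same direction. All 5 were therefore lower in OGT-deficient cells, with log2 fold changes from -1.48 for *Ttn* to -0.24 for *Gtf2i*, and nothing is read from that direction. For *Il1rl1* they were *Isg20l2* (0.989), *Morf4l1* (0.986), *Mterf2* (0.986), *Hk1* (0.985) and *Zfp459* (0.983). The r values are descriptions over 6 libraries that share genotype and scaling. Among the receptors themselves, r with *Il18rap* was 0.940 for *Il18r1*, 0.785 for *Il1rl1*, -0.443 for *Il1rap*, -0.137 for *Il1r1* and -0.01 for *Sigirr*. These values largely restate the difference between the groups. *Il18rap* and *Il1rl1* were also chosen for being lower without OGT, so nothing is read from them.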

How the data were processed

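RNA was sequenced from sorted YFP+ Treg cells of females, 3 samples per genotype. The authors trimmed reads with Trimmomatic 0.33 and mapped them with Bowtie2 2.2.4.0; the labels list the build mm10. The counter is Cuffquant in the paper's methods and featureCounts in the submitters' processing notes, and the annotation and strand setting are not given in the sources used here. The deposited values are whole counts per gene symbol and sample, without normalization. The authors' own test columns (p-values, fold changes) and group means were not used.

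Counts were tested in R 4.3.3 with edgeR 4.0.16 (quasi-likelihood, TMM, filterByExpr with min.count 10, no block, Benjamini-Hochberg over 10949 genes). Each standard error was obtained by dividing the log2 value by the root of its F statistic. CPM values use TMM-scaled library sizes. DESeq2 1.42.0, edgeR's exact test, other scalings and filters, a replicate block and leaving out each library were the alternatives. The test was checked on simulated counts. Libraries of a group differed by a chi-square per degree of freedom of 3.31 to 22.0, so none was merged. Positions and exon lengths came from GENCODE M21 (GRCm38). Members and gene lists were chosen with earlier results of these data known. Besides *Ogt*, the members, the main ligands and *Myd88*, genes named are the genes near the receptor run, the most alike 5, and per list at most 3 with the lowest p among those without overlap, plus any at an FDR under 0.1. *Foxp3*, *Il2ra*, *Gata3*, *Areg*, *Il10*, *Il1a*, *Rn45s* and the single cell type markers were named after their values were seen. The summed marker lists not described in the report were between 71.2 and 240 CPM (B cell, highest in OGT-sufficient replicate 3), 6.71 and 27.8 CPM (IL-17-type T cell) and 146 and 215 CPM (endothelium and stroma).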

Additional observations from a re-analysis of the deposited data

How the results depend on the processing

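The log2 fold changes of *Il18rap*, *Il18r1*, *Il1rl1* and *Il1rap* kept their sign in all 14 alternative settings, although *Il1rap* came down to 0.00068. The sign turned for *Il1r1* (-0.22 to 0.53 on leaving out single libraries) and *Sigirr* (lowest -0.083, highest 0.26), as did those of *Il18* (-0.11 to 0.47) and *Il1b* (-1.39 to 0.17). For *Il18rap* they ran from -1.79 to -1.60, for *Il18r1* from -0.93 to -0.65 and for *Il1rl1* from -1.09 to -0.59. *Il18r1* passed an FDR of 0.1 with DESeq2 (log2 fold change -0.80), the exact test (-0.82) and no filter (-0.78), so 2 members passed in each of these, against 1 in the reported test and 0 to 1 with a replicate left out. Members lower at an unadjusted p under 0.05 were 2 to 3 with a replicate left out.

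Equal replicate numbers do not pair samples here (correlations of -0.281, 0.0073 and -0.118 for equal numbers). With the replicate block, *Il18rap* had a log2 fold change of -1.74 with an adjusted p of 0.537, and 0 members and 0 of all genes passed an FDR of 0.1. At an unadjusted p under 0.05 there were 3 lower members, 0 signalling genes and 679 of all genes.

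Signalling genes at an unadjusted p under 0.05 were 1 in the reported test, 0 with the exact test and with library size only, 2 without a filter and 0 to 2 with a replicate left out. Over all genes, 3 passed an FDR of 0.1, and the number was 40 for DESeq2, 80 for the exact test, 131 when no filter was set and 0 to 9 with a replicate left out (0 without OGT-deficient replicate 2 or 3, with 462 and 742 genes at an unadjusted p under 0.05; the 9 arose on removal of OGT-sufficient replicate 3). Genes lower at an unadjusted p under 0.05 were 439, against 247 with DESeq2 and 205 to 521 with a replicate left out. They were 56.5% of the genes at that threshold, against 66.8% with library size only, 49.2% with DESeq2, 49.9% with its size factors, 49.5% without a filter and 43.4% to 58.6% with a replicate left out, so the majority turned with the setting. The cause of these shifts was not tested. *Il1rap* took 4.24% of the summed level per kb of the 8 members, and 7.73% with the longest transcript as length. At the depth of *Il1r1*, *Il1r2* and *Il1rl2* the counting error alone is wide, which limits what can be said of them. The same limit holds for *Il18rap* in the OGT-deficient libraries, with 15 to 19 counts.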
